A study of Mus musculus with 15 samples.

Results

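The long intergenic noncoding RNA (lincRNA) genes described here were the rows of a mouse heart expression table with the gene biotype lincRNA and a mean of at least 1.5 FPKM over all 15 libraries. FPKM, here fragments scaled by gene length and by a factor for each library, is a level per length, so levels of different genes can be set side by side. Of the 5559 lincRNA genes in the table of 54532 genes, 115 met this rule. A further 2928 were at 0 in every library, and 4 well-studied lincRNA genes above the threshold were left out by name. The members were thus chosen by their measured mean level over all groups, and no difference between groups entered the rule. The mean still holds each group's level, and 78 of the 115 genes had a mean of at least 1.5 FPKM in each of the 3 groups taken alone.

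The libraries came from poly-A RNA of left ventricles, taken from female mice of the C57BL/6JRj strain aged 12 to 18 weeks. Myocardial infarction (MI) was made by tying off the left descending coronary artery for good, and the ventricle was collected 8 days later. The 5 MI and the 5 Sham libraries came from mice given vehicle, the cyclodextrin Captisol at 20%. The 5 GSK libraries came from mice given GSK-343, an inhibitor of the histone methyltransferase EZH2, at 20 mg/kg in the same vehicle, by daily injection into the peritoneum from 6 h to 7 days after surgery. The sample names give only the compound for the GSK group, which was taken as infarcted from the treatment protocol. Sham replicates 1 and 2 each mix the RNA of 2 animals. Group differences below set MI against Sham and GSK against MI, and the comparisons share the MI libraries. The remaining comparison set GSK against Sham.

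Long noncoding RNAs are transcribed by RNA polymerase II and are often spliced and polyadenylated like messenger RNAs, but carry no long conserved reading frame. Some act in the nucleus on chromatin, among them Xist, which coats the inactive X chromosome, and others act in the cytoplasm by binding proteins or microRNAs. Many are the host transcripts of small nucleolar RNAs or microRNAs, and many start beside the promoter of a protein-coding gene on the other strand. EZH2 is the enzyme of the Polycomb repressive complex PRC2, which several long noncoding RNAs of the heart are known to bind.

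The 115 genes lay on 20 chromosomes and had a median length of 1189 bp of exon sequence, from 194 to 17946 bp. Their levels were low. The median of their mean levels was 3.0 FPKM, 57 were under 3 FPKM, 15 reached 10 FPKM, and the highest was at 62.7 FPKM. A median of 103 fragments per gene and library stood behind these values. In GENCODE vM21, 114 of the genes were lincRNA and 112 had the same coordinates. RefSeq held a record of the same symbol for 80, of which 73 were lncRNA, 5 protein-coding and 2 pseudogene. The protein-coding records included Lsmem2 and 1810058I24Rik, so the noncoding label of a few members depends on the annotation. Exon bases were shared with another gene by 25 members and with a protein-coding gene by 9, and 5 had a near-identical copy elsewhere (at least 95% identity over at least 50% of a transcript). For those genes the counting may have divided fragments between the copies. The strand setting of the counting is not given in the sources used here, so fragments of genes overlapping on opposite strands cannot be told apart.

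The libraries held 21534017 to 26843564 fragments assigned to genes. Mitochondrially encoded transcripts took 41.2 to 42.2% of the summed FPKM in Sham, 23.2 to 40.6% in MI and 31.8 to 48.7% in GSK. Of 7 cardiomyocyte marker genes, 5 were lower in MI than in Sham and none was higher, and their summed level ran from 13130 to 17215 FPKM in Sham, from 8864 to 18062 in MI and from 10549 to 15636 in GSK. Markers of fibroblasts (4 of 6) and of macrophages and monocytes (5 of 6) were higher in MI. Over all genes tested, 21.9% were higher and 21.9% lower. The summed fibroblast markers ran from 205 to 287 FPKM in Sham, from 448 to 1023 in MI and from 315 to 946 in GSK. In whole tissue, fewer cells of a type and less RNA per cell cannot be told apart, and the part of cell composition in the differences below was not tested.

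Most lincRNA genes that differed between Sham and MI were lower after infarction. In a limma fit on log2(FPKM + 1) over all 12585 genes that reached 1 FPKM in 5 or more libraries, 55 of the 115 were lower in MI at a Benjamini-Hochberg adjusted p under 0.05 and 11 were higher. All 115 passed the filter. The share lower was 47.8%, against 21.9% of all genes tested, and the share higher was 9.57%, against 21.9% of all genes tested. Differences are given on the log2(FPKM + 1) scale, on which the change of a weakly expressed gene comes out too small. The called falls ran from -0.29 to -2.21 and the called rises from 0.42 to 1.77. A call with a fall of at least 1 was made for 18 members (15.7%, against 2.42% of all genes), and a rise of at least 1 for 1 member (0.870%, against 3.90%). Some of the 18 met the rule of 1.5 FPKM only through the groups where they were high. Gm48866 and Gm47850, for example, were under 1.5 FPKM in every MI library. The count of large falls thus leans on the rule that chose the members.

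The median difference of the members was -0.35, against -0.02 for all genes tested and -0.01 for protein-coding genes. All Sham libraries were above all MI libraries for 38 members (33.0%, against 14.2% of all genes), and the reverse held for 7 (6.09%, against 15.7%). Genes screened for shared sequence gave counts of the same kind. The screen kept 81 members with no shared exon base in GENCODE vM21, no near-identical copy and no protein-coding or pseudogene RefSeq record of the same symbol. Of these, 43 were lower and 6 higher, with a median of -0.45. RefSeq genes of other symbols were not screened, and some cover kept members, such as Hint3 and Tbx5 over 100% of Gm20300 and Gm43050. Among the 78 members above the threshold in each group, 35 were lower and 8 higher. The 75 lincRNA genes that passed the filter but were not members gave 28 lower (37.3%) and 10 higher calls. With a change of at least 1, these genes gave 3 lower (4%) and 3 higher calls (4%). With mitochondrially encoded genes left out and the library totals equalised, 46 members were lower and 13 higher, while over all genes 1897 were lower and 3314 higher, against 2758 and 2757 on the deposited scale.

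**Figure D1:**
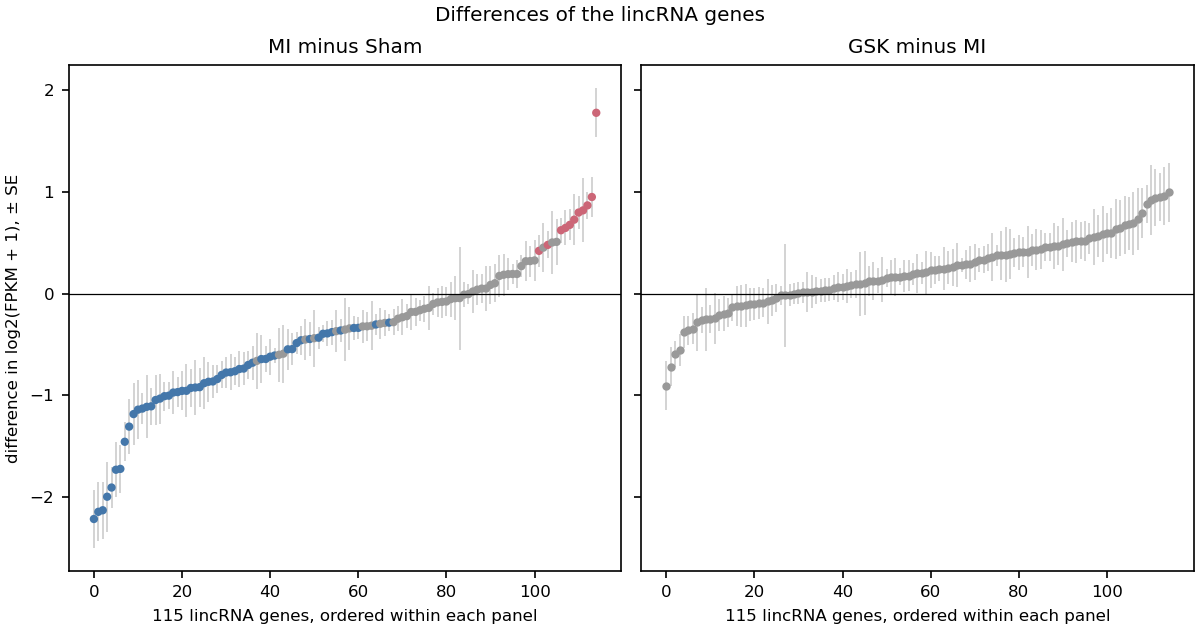
Each point is one of the 115 lincRNA genes with its difference in log2(FPKM + 1) and SE, ordered by value within each panel. In the left panel (MI minus Sham) the 55 genes called lower are blue, the 11 called higher are red and the others grey, while no gene passed the test in the right panel (GSK minus MI).

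The libraries of a group were not alike in these genes. For the 55 members lower in MI, MI replicate 1 was the highest of the MI libraries for 34 and MI replicate 2 the lowest for 34. MI replicate 2 also had the lowest summed cardiomyocyte markers of all libraries, 8864 FPKM. MI replicate 1, at 12863 FPKM, was below MI replicates 4 and 5, at 14100 and 18062. In the GSK group, replicate 5 was the lowest for 31 of the 55. Its summed cardiomyocyte markers, 12535 FPKM, were above those of GSK replicate 1, at 10549. A link with the markers was not tested. The spread between libraries was wider for the members than for all genes tested in each group. The members and all genes tested were not matched for level, and the part of low counts in this spread was not tested. The members' coefficients of variation had medians of 18.7% (Sham), 33.0% (MI) and 24.6% (GSK), against 10.1%, 19.2% and 15.4% for all genes tested.

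The largest fall was that of Gm36827 (ENSMUSG00000112327), a gene on chr10:56970329-56982232 of build mm10, minus strand, with the nearest protein-coding start, that of Hsf2, 504153 bp away. It was at 23.1, 27.3, 42.7, 40.7 and 44.1 FPKM in Sham replicates 1 to 5, at 15, 3.29, 5.69, 7.31 and 5.87 in MI, and at 10.8, 16.6, 18.4, 13.1 and 11.8 in GSK. Every Sham library was above every infarcted library, and MI replicate 1 was the highest of its group. The MI mean was 4.79-fold below the Sham mean, and the fitted difference was -2.21 ± 0.28 (SE, n = 5 per group, limma adjusted p = 5.46e-05). Hsf2 itself, which encodes a heat shock transcription factor, differed by -0.13 (limma adjusted p = 0.407).

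Gm49477 lies on chromosome 15 (103135881 to 103140669, plus strand), where RefSeq places the record D930007P13Rik. It was at 15.4, 19.1, 17.5, 19.8 and 20.5 FPKM in Sham, at 6.29, 1.10, 4.38, 2.39 and 5.16 in MI and at 7.51, 11.4, 6.75, 8.42 and 4.83 in GSK. The Sham values were narrow (18.5 ± 2.1, SD) and none was reached by an infarcted heart. The difference between MI and Sham was -2.13 ± 0.28 (limma adjusted p = 6.21e-05).

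Chaer1, known as a cardiac RNA that binds PRC2 and promotes hypertrophy, was among the largest falls. It lies on chr5:77138471-77140252, minus strand, 25.1 kb upstream of the homeodomain gene Hopx on the same strand. Chaer1 stood at 4.71, 5.37, 4.42, 4.85 and 4.70 FPKM in Sham, at 1.94, 0.165, 0.448, 0.514 and 1.25 in MI, and at 2.63, 3.09, 3.21, 2.65 and 0.968 in GSK. The 3 MI libraries with the lowest values were below all others, and GSK replicate 5 lay among the MI values while the other GSK libraries lay between the MI and the Sham values. The Sham mean was 5.57-fold above the MI mean, with a difference of -1.72 ± 0.23 (limma adjusted p = 7.97e-05). Between 3 and 87 fragments per library lay behind the MI minimum and the Sham maximum.

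A group of 3 overlapping or adjacent members on chromosome 12 was lower in MI. Gm24474 (70650182 to 70693780, plus strand) spans Gm48866 (70674123 to 70675456, plus strand) and Gm32369 (70675847 to 70681850, minus strand), without any shared exon base in GENCODE vM21. Gm24474 was at 10.7, 14.1, 17.1, 23.6 and 20.4 FPKM in Sham, at 7.15, 1.9, 1.79, 4.89 and 3.31 in MI and at 6.38, 15.7, 7.65, 7.74 and 3.36 in GSK. The Sham and MI values did not overlap, and GSK replicate 2 reached into the Sham range.

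Gm48866 was at 3.94, 2.34, 8.78, 6.32 and 3.92 FPKM in Sham and at 0.651, 0.104, 0.425, 0 and 0.339 in MI, which makes it the only member at 0 in any library. Gm32369 was at 2.30, 2.38, 3.21, 3.66 and 4.97 in Sham and at 1.17, 0.219, 0.423, 0.424 and 0.582 in MI. The differences between MI and Sham were -1.99 ± 0.34 for Gm24474, -2.14 ± 0.29 for Gm48866 and -1.45 ± 0.19 for Gm32369 (limma adjusted p = 0.00039, 7.97e-05 and 6.27e-05). Their nearest protein-coding gene, Frmd6, whose start lies 175332 bp from that of Gm24474, differed by -0.09 (limma adjusted p = 0.455). The cluster was singled out after its values were seen.

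Gm12319, on chromosome 11 from 70654741 to 70656493, was at 9.97, 14.8, 19.9, 17.4 and 19.8 FPKM in Sham, at 6.36, 2.50, 4.39, 2.01 and 7.28 in MI and at 6.13, 8.70, 4.58, 5.35 and 4.30 in GSK. All Sham libraries were above all others. Its difference was -1.73 ± 0.27 (limma adjusted p = 0.000209). RefSeq draws records of the actin-binding gene Pfn1 and of Eno3, the muscle enolase, across this interval. Eno3, whose start lies 709 bp away in the other direction, differed by -0.58 (limma adjusted p = 0.0837).

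The remaining members among the 12 largest falls were Gm47850 (-1.90 ± 0.20), Gm12519 (-1.31 ± 0.27), 2310040G24Rik (-1.18 ± 0.30), Gm4544 (-1.14 ± 0.29) and 2900076A07Rik (-1.13 ± 0.15). Each had no overlap between Sham and MI. Gm47850 is the shortest gene of the set at 194 bp, and 1 fragment lay behind each of its lowest MI values. It was at 4.0 to 6.56 FPKM in Sham, at 0.184 to 0.999 in MI and at 0.406 to 1.92 in GSK.

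**Figure D2:**
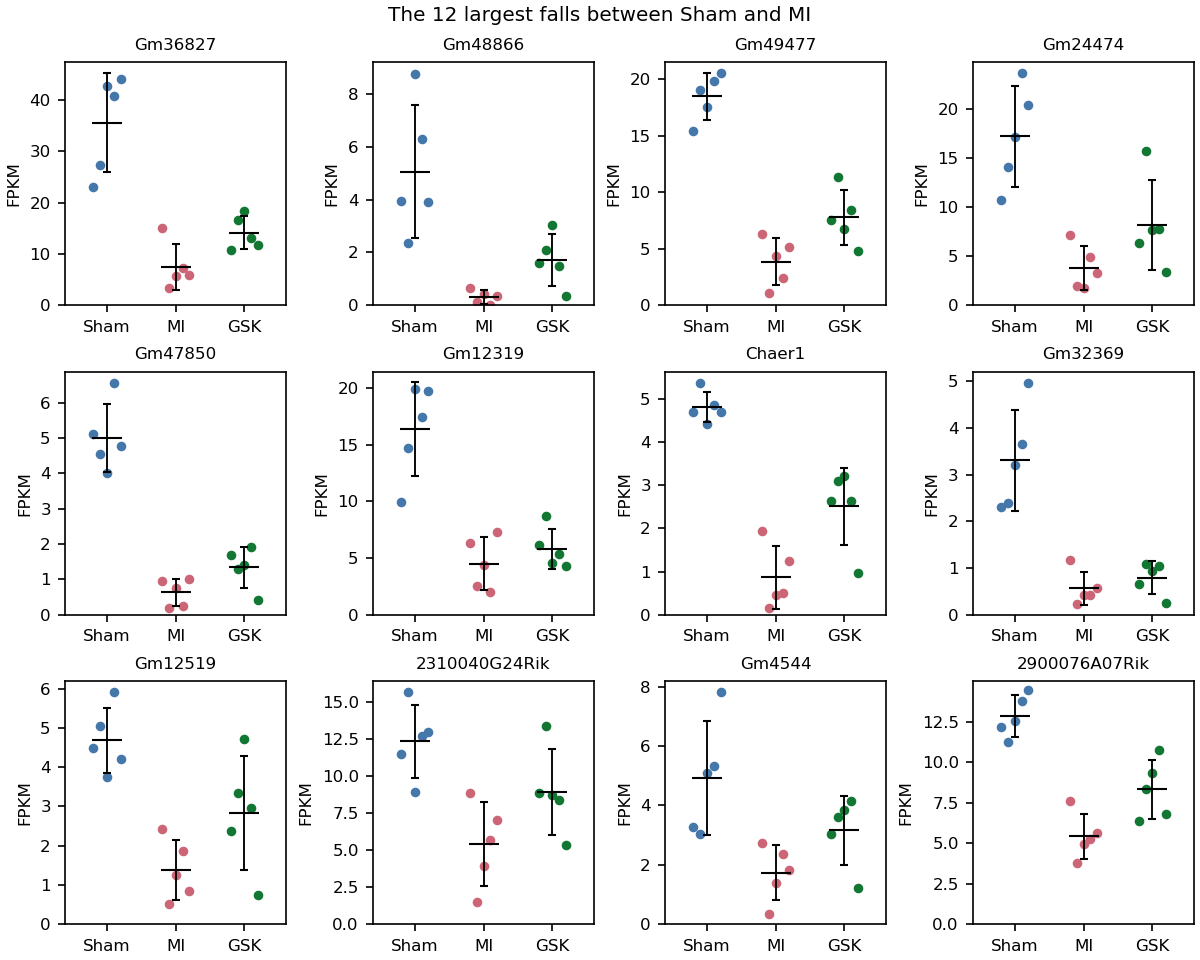
FPKM of the 12 members with the largest falls, with one point per library from replicate 1 on the left to 5 on the right, and the mean and SD of each group in black. Sham libraries lie above all MI libraries in each panel, and GSK replicate 5 is the lowest GSK library of Chaer1, at 0.968 FPKM.

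The members with the highest levels included 2 long RNAs known for conserved roles in RNA stability. 1700020I14Rik is the gene of Cyrano, which is known to direct the decay of the microRNA miR-7, and 2900097C17Rik is that of Norad, which binds Pumilio proteins. Norad was at 49.6, 52.5, 53.0, 51.4 and 57.3 FPKM in Sham, at 36.6, 33.2, 34.0, 34.3 and 33.1 in MI and at 40.1, 43.9, 44.9, 42.1 and 38.1 in GSK. The 3 groups did not overlap at any point, with Sham highest and MI lowest. The MI difference was -0.61 ± 0.07 (limma adjusted p = 3.71e-05). Norad has a copy at 100% identity over 339 bp in the annotated gene Gm7292, so a part of its fragments could be assigned elsewhere.

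Cyrano was at 54.6, 51.4, 54.0, 54.5 and 56.1 FPKM in Sham, at 29.3, 33.1, 27.1, 44.7 and 26.2 in MI and at 38.5, 36.8, 49.5, 54.1 and 40.9 in GSK. MI replicate 4, a library with 40.6% mitochondrial FPKM against 23.2 to 27.6% in the other MI libraries, was the highest of its group. The difference between MI and Sham was -0.76 ± 0.14 (limma adjusted p = 0.00056). Nusap1, the nearest protein-coding gene and a mitotic spindle gene, was higher by 0.84 (limma adjusted p = 6.68e-05).

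Lsmem2, a gene with a protein-coding record in RefSeq, was at 52.8 to 69.4 FPKM in Sham, at 53.7, 13.8, 30.2, 25.3 and 32.7 in MI and at 36.5 to 54.6 in GSK. MI replicate 1 fell inside the Sham range, and the difference was -1.03 ± 0.25 (limma adjusted p = 0.00354). Gm44386 was at 49.5 to 71.0 FPKM in Sham and at 25.1 to 44.7 in MI, a difference of -0.77 ± 0.17 (limma adjusted p = 0.00251). It lies on chromosome 6 on the same strand as 2310040G24Rik, which is 25.7 kb away. Gm10076, the member with the highest mean, is a pseudogene in RefSeq with 99.5% identity to the ribosomal protein gene Rpl41. It ran from 15.5 to 160 FPKM within Sham alone, and its difference of -0.04 ± 0.51 (limma adjusted p = 0.951) changed sign with the libraries used.

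Summed over all members, the level was 848 to 985 FPKM in Sham, 522 to 759 in MI and 718 to 860 in GSK. Without Gm10076 the sums were 812 to 880, 481 to 710 and 655 to 776 FPKM. No MI library reached the lowest Sham library on either sum. As a share of all fragments assigned to genes the groups overlapped, with 0.187 to 0.211% in Sham and 0.156 to 0.196% in MI. They also overlapped as a share of all FPKM, with 0.184 to 0.226% in Sham and 0.166 to 0.223% in MI. As a share of the FPKM without mitochondrially encoded genes they did not, with 0.318 to 0.385% in Sham and 0.224 to 0.308% in MI.

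The 11 members higher in MI were led by Gm42047, on chromosome 8 from 121833247 to 121841178. It was at 1.22, 1.22, 2.26, 1.76 and 1.42 FPKM in Sham, at 9.45, 6.76, 12.0, 4.09 and 8.34 in MI and at 6.78, 2.94, 3.34, 2.31 and 3.98 in GSK. Every infarcted library was above every Sham library. The MI mean was 5.16-fold above Sham, with a difference of 1.77 ± 0.24 (limma adjusted p = 7.97e-05). Gm42047 is near-identical (98.4% over 3209 bp) to Gm48362, and the protein-coding record Gm42048 of RefSeq covers 90.6% of it, so its level is uncertain.

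Gm17501 starts 331 bp from Cyr61 on the other strand, on chr3:145650312-145677580. Cyr61 (also Ccn1) encodes a secreted matricellular protein. Gm17501 was at 1.33, 1.38, 1.05, 0.775 and 1.05 FPKM in Sham, at 1.92, 5.16, 3.87, 2.56 and 2.53 in MI and at 2.14, 1.18, 0.960, 1.11 and 2.20 in GSK. All MI libraries were above all Sham libraries, and the GSK libraries fell on both sides of the Sham maximum. The difference was 0.95 ± 0.19 (limma adjusted p = 0.0012).

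Cyr61 was at 37.4, 32.8, 23.8, 16.7 and 19.3 FPKM in Sham and at 48.5, 98.8, 70.9, 59.5 and 42.0 in MI, a difference of 1.26 (limma adjusted p = 0.00165). MI replicate 2 was the highest for both genes of the pair, at 5.16 FPKM for Gm17501 and 98.8 FPKM for Cyr61. That library was also the highest MI library of Snhg6 and Gm12295, while MI replicate 3 was that of Gm42047 and Snhg18. Its being highest for both is thus not particular to the pair. Gm17501 and Cyr61 were both without overlap between Sham and MI.

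Snhg18, host of a small nucleolar RNA, was at 4.06, 5.25, 4.76, 4.54 and 4.46 FPKM in Sham, at 8.54, 10.2, 10.3, 9.14 and 8.06 in MI and at 10.4, 5.70, 8.07, 5.67 and 9.07 in GSK. All MI libraries were above all Sham libraries, as were all GSK libraries. Its mean was 2.0-fold higher in MI, with a difference of 0.87 ± 0.13 (limma adjusted p = 0.000194). Its start lies 148 bp from that of Sema5a, a semaphorin gene whose level was too low to be tested. Snhg6, another such host, was at 5.74, 6.60, 5.90, 7.57 and 7.45 FPKM in Sham and at 8.22, 13.5, 11.3, 11.1 and 10.2 in MI. The Snhg6 difference was 0.62 ± 0.12 (limma adjusted p = 0.00113), and 11.1% of its exon bases are shared with Mcmdc2 on the other strand.

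The other snoRNA hosts among the members, Snhg12 (0.32 ± 0.15, limma adjusted p = 0.101), Epb41l4aos (0.19 ± 0.16, 0.338) and Snhg20 (-0.01 ± 0.13, 0.952), did not pass the test. Without MI replicate 4 and GSK replicates 3 and 4, whose mitochondrial share was high for their group though that of MI replicate 4 was below every Sham library, Epb41l4aos did (0.31, limma adjusted p = 0.0324). In a list of 20 snoRNA host genes of any biotype, 13 were tested. Of these, 8 were higher in MI and none was lower, against 21.9% of all genes tested in each direction. Their median was 0.58, against -0.02 over all genes tested. The members in that list numbered 5.

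The smaller rises were Gm26532 (0.80 ± 0.16), Gm30735 (0.82 ± 0.32), Gm12295 (0.73 ± 0.25), AI839979 (0.67 ± 0.15), Gm39469 (0.64 ± 0.17), Gm28875 (0.48 ± 0.13) and Gm16907 (0.42 ± 0.16). Gm26532, AI839979 and Gm39469 had no overlap between Sham and MI, and the other 4 did. Gm30735, Gm12295 and Gm16907 were close to the threshold (limma adjusted p = 0.0471, 0.0285 and 0.0451). Their calls were lost on leaving out any of several single libraries, given with the dependence on processing.

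**Figure D3:**
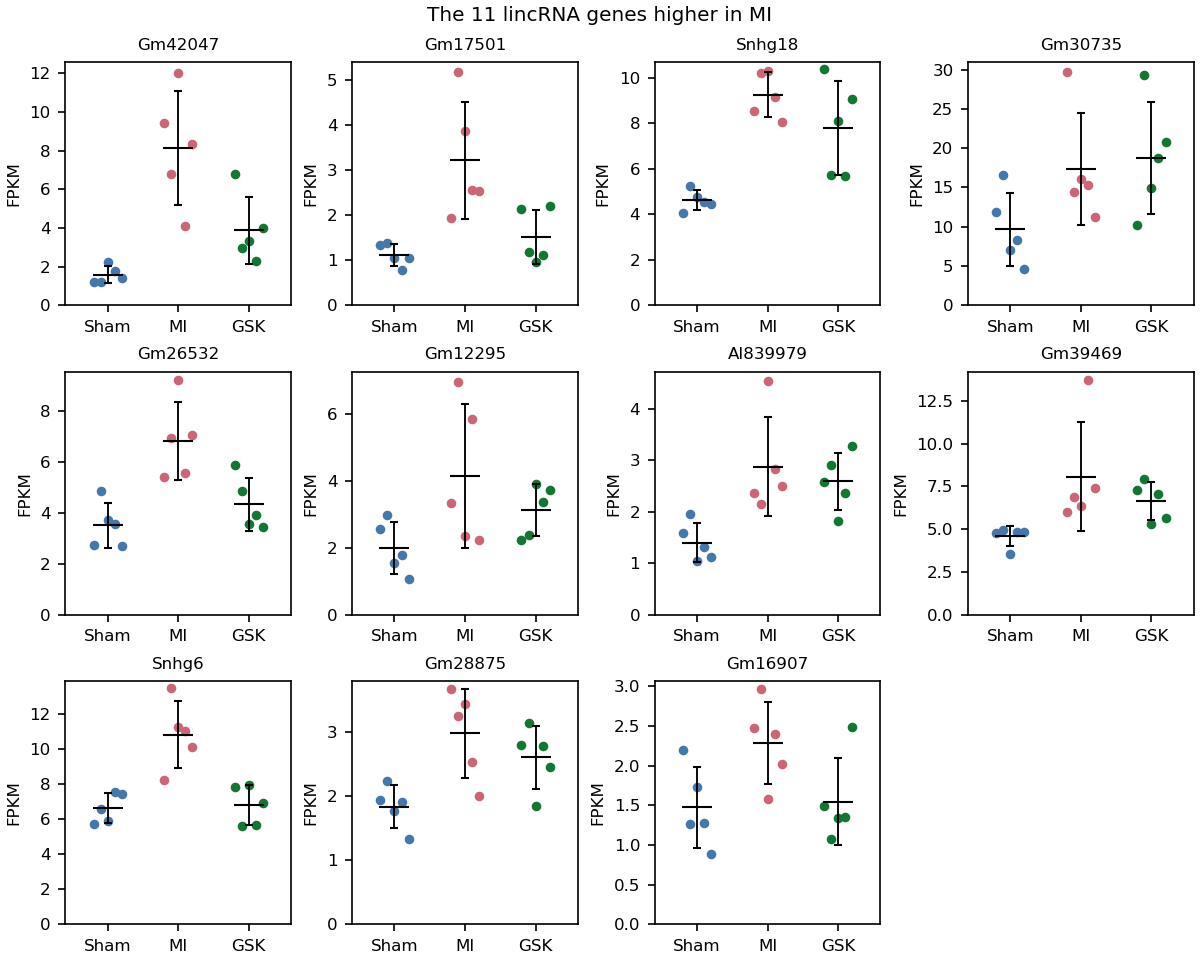
FPKM of the 11 members higher in MI, with one point per library, and the mean and SD of each group in black. In 7 panels every MI library lies above every Sham library, and Gm30735 in MI replicate 1 stands apart at 29.7 FPKM.

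Several members are the transcripts of microRNA hairpins. RefSeq places a hairpin within 5 kb of 7 members. The hairpins of Mir101a, Mir30c-2, Mir1839 and Mir6516 lie wholly within exons, on the same strand, of E130102H24Rik, Gm27028, 2900076A07Rik and Snhg20. Gm26532 starts at the end of the Mir23a, Mir27a and Mir24-2 cluster on chromosome 8, sharing 2 bp with the last hairpin. Gm16907 lies 3337 to 4061 bp from the related cluster of Mir23b, Mir27b and Mir24-1 on chromosome 13, on the other strand. Mature microRNAs have no poly-A tail and were not measured in these libraries, so the values below are those of the long transcripts. The mature sequences are shown from 5′ to 3′ to tell the clusters' shared seeds, with the seed (bases 2 to 8) in capitals, from RefSeq on GRCm38.p6.
miR-101a-3p: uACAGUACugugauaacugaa
miR-30c-5p: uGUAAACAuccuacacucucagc
miR-1839-5p: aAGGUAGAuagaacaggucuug
miR-23a-3p: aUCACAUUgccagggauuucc
miR-27a-3p: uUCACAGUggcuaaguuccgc
miR-27b-3p: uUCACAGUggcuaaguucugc
miR-24-3p: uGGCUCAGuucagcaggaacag

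The seed UCACAGU is common to miR-27a-3p beside Gm26532 and miR-27b-3p beside Gm16907, and both clusters give the same miR-24-3p. Gm26532 and Gm16907 were both higher in MI. Gm26532 was at 2.74, 4.84, 3.71, 3.55 and 2.69 FPKM in Sham, at 5.40, 6.94, 9.19, 5.54 and 7.03 in MI and at 5.87, 4.86, 3.56, 3.91 and 3.43 in GSK (limma adjusted p = 0.00109 for MI against Sham). Gm16907 was at 2.20, 1.27, 1.73, 1.28 and 0.881 FPKM in Sham and at 2.47, 2.96, 1.57, 2.39 and 2.03 in MI. The 2 groups did not overlap for Gm26532 and overlapped for Gm16907.

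The hosts of Mir101a, Mir30c-2 and Mir1839 were lower in MI. E130102H24Rik, which holds the hairpin of miR-101a, a microRNA known to target Ezh2, was at 3.34, 3.24, 1.84, 3.80 and 3.49 FPKM in Sham, at 2.39, 2.02, 2.03, 1.56 and 1.14 in MI and at 1.63, 1.51, 2.18, 1.83 and 0.987 in GSK. Apart from Sham replicate 3, all Sham libraries were above all MI libraries. Its difference was -0.55 ± 0.16 (limma adjusted p = 0.0123), and without the mixed Sham libraries the adjusted p was 0.0658. The GSK libraries were also lower than Sham (-0.65 ± 0.16, limma adjusted p = 0.0132).

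Gm27028, a 399 bp gene on chr1:23291537-23291935 with the hairpin of miR-30c inside its exon, was at 2.71, 1.91, 3.78, 3.07 and 2.56 FPKM in Sham, at 1.12, 1.70, 0.731, 1.68 and 1.17 in MI and at 1.46, 1.89, 1.48, 2.80 and 0.889 in GSK. Sham and MI did not overlap, and the difference was -0.74 ± 0.18 (limma adjusted p = 0.0037). 2900076A07Rik was at 12.2, 11.3, 12.6, 13.8 and 14.5 FPKM in Sham, at 7.59, 3.76, 4.92, 5.23 and 5.62 in MI and at 6.35, 8.32, 9.33, 10.8 and 6.82 in GSK. No infarcted heart reached the Sham range of 2900076A07Rik (limma adjusted p = 6.64e-05 for MI against Sham). These hosts were picked for the hairpins after the values were seen, and a separate list of 16 named microRNA host genes had 3 tested genes, with no call in either direction.

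**Figure D4:**
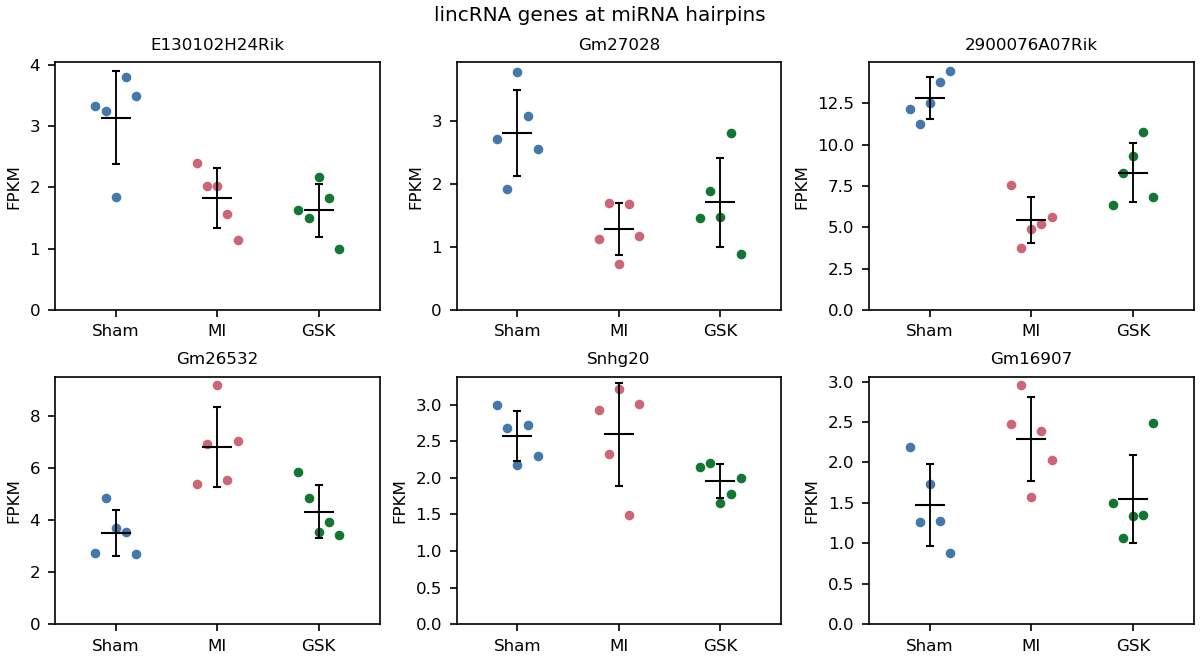
FPKM of 6 members at or near microRNA hairpins, with one point per library, and the mean and SD of each group in black. E130102H24Rik, Gm27028 and 2900076A07Rik are lower in MI, Gm26532 and Gm16907 higher, and the Snhg20 means are 2.57 in Sham and 2.59 in MI.

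Xist, Bvht and Chaer1 are members known to act with chromatin, drawn from different sets: Xist from a list of such RNAs, Bvht from a list of RNAs studied in heart or vessel, and Chaer1 from the largest falls. Xist was at 18.4, 16.6, 24.4, 23.1 and 19.1 FPKM in Sham, at 22.5, 28.3, 23.4, 23.9 and 17.3 in MI and at 27.6, 10.8, 22.3, 27.0 and 22.4 in GSK, with no call in any comparison. Bvht (braveheart), which binds the PRC2 subunit SUZ12 and acts in cardiac commitment, was at 6.84 to 9.38 FPKM in Sham, at 8.14 to 11.4 in MI and at 5.33 to 9.76 in GSK. Its differences were 0.19 ± 0.14 for MI against Sham (limma adjusted p = 0.277) and -0.36 ± 0.14 for GSK against MI (limma adjusted p = 0.169). Chaer1, described above, was lower in MI. In a list of 17 RNAs of X inactivation and chromatin, 5 were tested and 1, Peg13, which is no member, was lower in MI (-0.69). In the list of 23 RNAs studied in heart or vessel, 2 were tested. Bvht was 1 of them, and the other, which is no member, was lower than Sham in both MI and GSK.

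Ezh2, which encodes the target of the compound, was at 0.837 to 1.13 FPKM in Sham, at 1.22 to 1.68 in MI and at 1.20 to 1.40 in GSK. It was higher in MI than in Sham by 0.28 (limma adjusted p = 0.00568, and 0.0597 without the mixed Sham libraries) and did not pass the test between GSK and MI (-0.07, limma adjusted p = 0.577). Its mRNA says nothing about the enzyme's activity.

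Each member was set beside its nearest protein-coding gene by the distance between starts. The median distance was 25.9 kb, 20 members lay within 1 kb, and 18 of these started on the opposite strand in the divergent orientation. There were 110 different neighbours, of which 82 were tested. Of the 46 members lower in MI with a tested neighbour, 9 had a neighbour that was lower (19.6%) and 6 one that was higher. Among protein-coding genes lower in MI, 28.8% had a lower and 16.5% a higher nearest protein-coding gene. Over 87 pairs the differences of member and neighbour had a Pearson r of 0.31 and a Spearman rho of 0.19. Over 7498 protein-coding pairs the Pearson r was 0.17 and the Spearman rho 0.14. These are descriptions across genes, which share the same libraries and are not independent.

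In the 18 divergent pairs, 13 lincRNA members were lower (72.2%) and 2 higher, against 47.8% of all members and 21.9% of all genes lower. Of the 13 partners of the lower members, Tbx5 and Msi2 were lower (15.4%), 2610001J05Rik and Ube2q1 were higher (15.4%) and the other 9 did not pass the test. Among protein-coding genes lower in MI with the nearest protein-coding start within 1 kb, 34.6% had a lower and 9.88% a higher neighbour. Gm43050 starts 748 bp from Tbx5, a transcription factor gene of heart development and conduction, and RefSeq draws Tbx5 across it. Gm43050 was at 4.33, 5.93, 4.83, 4.18 and 3.52 FPKM in Sham and at 4.46, 1.49, 2.38, 2.30 and 2.90 in MI. Tbx5 was at 6.02, 6.26, 10, 8.93 and 7.91 in Sham and at 6.04, 3.09, 2.27, 5.16 and 3.33 in MI. MI replicate 1 reached into the Sham range for both genes.

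The differences were -0.62 ± 0.18 for Gm43050 and -0.86 for Tbx5 (limma adjusted p = 0.0109 and 0.0033). Without the mixed Sham libraries, the adjusted p of Gm43050 was 0.0654. C030037D09Rik starts 132 bp from Msi2, which encodes a Musashi RNA-binding protein. It differed by -0.30 ± 0.11 (limma adjusted p = 0.03), and Msi2 by -0.73 (limma adjusted p = 9.92e-05). Its call was lost without Sham replicate 3, 4 or 5 (adjusted p = 0.0653, 0.0637 and 0.0663) or without MI replicate 2 (-0.20, adjusted p = 0.062). Both pairs were picked after their values were seen.

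Only 4 neighbours differed by more than 1 on the log2 scale between MI and Sham. Hopx, known as a regulator of heart growth, was at 102, 89.6, 69.9, 84.5 and 89.9 FPKM in Sham, at 43.4, 22.0, 27.2, 44.3 and 30.0 in MI and at 53.4, 75.1, 46.0, 55.8 and 26.6 in GSK. Like Chaer1, Hopx had its lowest GSK value in replicate 5, which was the lowest GSK library for 31 of the 55 members lower in MI. The Hopx difference between MI and Sham was -1.40 (limma adjusted p = 0.00037). The other 3 neighbours rose. These were Cyr61 beside Gm17501, Rtn4 (1.52, limma adjusted p = 0.000912) at 47438 bp from Gm12092, and Phlda1 (1.24, limma adjusted p = 0.00472) at 92891 bp from Gm30262.

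**Figure D5:**
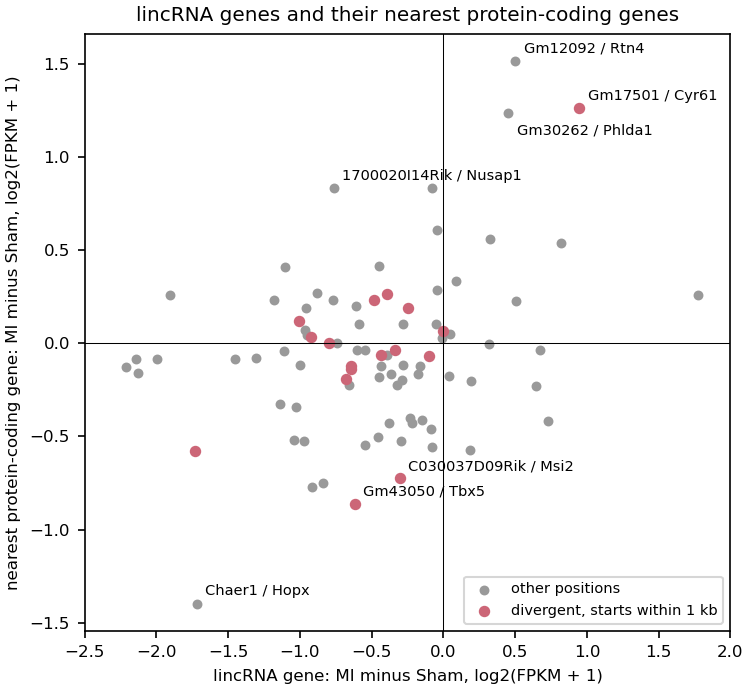
Difference between MI and Sham of each of 87 members (horizontal axis) and of its nearest protein-coding gene (vertical axis), both on the log2(FPKM + 1) scale, with divergent pairs within 1 kb in red. Chaer1 and Hopx lie at the lower left, Gm17501 and Cyr61 at the upper right, and most lower members lie beside neighbours near 0.

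RefSeq held promoters, from 250 bases before to 50 after the start, for 69 members by symbol, and 49 of these had a start within 250 bp of the deposited table's. The 4 windows below are shown because the genes are among the largest falls (Gm36827, Chaer1, 2900076A07Rik) and the rises (AI839979). Capitals mark a match on either strand to the TATA box (TATAAA) or the M-CAT motif of TEAD factors (CATTCC). The AP-1 motif (TGACTCA), the E-box (CACGTG) and the GATA motif (GATAAG) were also searched, and none of them matched in these 4. The windows are chr10:56982182-56982481 for Gm36827, chr5:77140256-77140555 for Chaer1 and chr5:31571348-31571647 for AI839979, all read from the minus strand, and chr7:81523300-81523599 for 2900076A07Rik on the plus strand, on GRCm38.p6.
Gm36827: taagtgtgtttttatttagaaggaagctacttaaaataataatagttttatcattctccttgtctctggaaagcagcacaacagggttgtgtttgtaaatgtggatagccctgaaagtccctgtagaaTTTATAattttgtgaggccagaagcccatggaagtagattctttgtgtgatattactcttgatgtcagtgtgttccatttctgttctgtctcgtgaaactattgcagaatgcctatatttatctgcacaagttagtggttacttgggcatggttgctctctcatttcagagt
Chaer1: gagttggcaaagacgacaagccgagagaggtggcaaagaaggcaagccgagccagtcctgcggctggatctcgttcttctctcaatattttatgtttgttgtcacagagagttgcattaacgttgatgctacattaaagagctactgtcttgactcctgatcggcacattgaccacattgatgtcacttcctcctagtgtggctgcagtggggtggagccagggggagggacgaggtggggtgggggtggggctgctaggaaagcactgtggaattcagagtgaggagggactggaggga
2900076A07Rik: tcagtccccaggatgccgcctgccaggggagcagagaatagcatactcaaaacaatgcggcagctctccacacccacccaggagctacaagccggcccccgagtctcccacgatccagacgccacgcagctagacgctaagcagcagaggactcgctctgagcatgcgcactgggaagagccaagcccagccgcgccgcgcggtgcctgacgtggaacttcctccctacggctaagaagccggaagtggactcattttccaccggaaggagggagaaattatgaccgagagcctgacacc
AI839979: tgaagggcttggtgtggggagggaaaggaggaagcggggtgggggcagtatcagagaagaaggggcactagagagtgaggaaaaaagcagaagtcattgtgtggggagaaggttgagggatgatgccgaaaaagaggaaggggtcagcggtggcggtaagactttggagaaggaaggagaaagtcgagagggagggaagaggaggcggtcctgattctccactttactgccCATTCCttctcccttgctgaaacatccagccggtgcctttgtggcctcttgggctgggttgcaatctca

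Gm36827 and 2900076A07Rik differed in base composition although both fell, with 1 CpG dinucleotide in the window of the former and 20 in that of the latter. The windows of Chaer1 and AI839979 held 8 and 7. Over the 23 members lower in MI that had such a window the median was 5 CpG (0 to 45). Over the 4 that were higher it was 18, with single values of 2, 7, 29 and 31. It was 9 (1 to 54) over the 22 members not called and 7 over all 32851 RefSeq promoters of this length. A difference in CpG between these sets was not tested. CATTCC was found in 13 of the 49 member windows (26.5%), against 14.7% of all promoters. TATAAA was found in 16.3% against 13.6%, TGACTCA in 6.12% against 5.20%, CACGTG in 8.16% against 7.15%, and GATAAG in 4.08% against 7.44%. A match is a description of letters only.

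No lincRNA member passed the test between GSK and MI, as no gene in the whole table did (0% of all genes tested, in either direction). With limma's voom on the fragments recovered from the FPKM values, 2 genes were higher and none lower, and neither was a member. A pseudocount of 0.1 gave 3 genes higher and none lower, with no member among them. The lowest limma adjusted p among the members was 0.0769. At an unadjusted p under 0.05, 35 members were higher with GSK-343 (30.4%, against 10.8% of all genes) and 7 lower (6.09%, against 10.1%). These 42 included 32 of the 55 members called lower in MI than in Sham and 5 of the 11 called higher. Of the 49 members not called there, 5 reached this p, against 20.96% of all genes, called or not. The 2 comparisons share the MI libraries, so these counts are not independent. With this rule the 35 differences ran from 0.28 to 0.99 and the 7 from -0.34 to -0.90. The median of the members was 0.20, against 0.00 for all genes tested. The GSK and MI groups did not overlap for 2 members that were higher (against 1.15% of all genes) and 1 that was lower (against 0.858%). These were Gm19277, Norad and Snhg6.

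Gm19277 was at 1.60, 0.583, 1.06, 1.52 and 0.466 FPKM in MI and at 2.51, 3.42, 3.08, 2.96 and 1.62 in GSK, with a difference of 0.88 ± 0.19 (limma adjusted p = 0.0811). The lowest GSK library barely exceeded the highest MI library, at 1.62 against 1.60 FPKM. Snhg6 was at 8.22, 13.5, 11.3, 11.1 and 10.2 FPKM in MI and at 7.86, 5.64, 7.97, 5.69 and 6.95 in GSK, with a difference of -0.59 ± 0.12 (limma adjusted p = 0.0769). Norad differed by 0.28 ± 0.07 (limma adjusted p = 0.101).

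The other members with the lowest p values between GSK and MI were Chaer1 (0.95 ± 0.23, limma adjusted p = 0.094) and Gm20300 (0.49 ± 0.13, 0.102) on the higher side, and Gm17501 (-0.72 ± 0.19, 0.104), Gm42047 (-0.90 ± 0.24, 0.104) and Gm26532 (-0.55 ± 0.16, 0.113) on the lower side. RefSeq draws the protein-coding gene Hint3 across the whole of Gm20300. The outcome between GSK and MI rested on single libraries. Without MI replicate 1, 8 members were higher and 2 lower at an adjusted p under 0.05, among 204 genes higher and 188 lower (1.62% and 1.49% of all genes). Without GSK replicate 5, 9 were higher and 2 lower, among 154 and 134 (1.22% and 1.06%). Chaer1, Gm19277, Gm28979 and Norad were called higher, and Snhg6 and Gm17501 lower, in both of these fits. Gm17501 had adjusted p values of 0.0357 and 0.0497 there, and Snhg6 of 0.0162 and 0.0445.

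GSK hearts were also set against Sham hearts. Of the 115 members, 22 were lower (19.1%, against 7.58% of all genes) and 4 higher (3.48%, against 10.8%), with a median of -0.18. All Sham libraries were above all GSK libraries for 18 members (against 7.79% of all genes) and below them for 4 (against 10.6%). Without mitochondrially encoded genes and with the totals equalised, 15 members were lower and 8 higher, and over all genes 425 were lower and 1960 higher, against 954 and 1354 on the deposited scale. The members higher in GSK were Snhg18 (0.61 ± 0.13, limma adjusted p = 0.00778), Gm42047 (0.87 ± 0.24, 0.0232), AI839979 (0.58 ± 0.15, 0.019) and Gm30262. The call of Gm42047 was lost in 7 of 24 alternatives, with an adjusted p of up to 0.115 without the mixed Sham libraries, and among single libraries without Sham replicate 1, 2 or 5 or GSK replicate 1 or 5. That of AI839979 was lost in 4 of 24, with an adjusted p of up to 0.0561, among them without Sham replicate 5 or GSK replicate 5. The lower members ran from -0.33 to -1.39 and were led by Gm47850, Gm12319 (-1.35 ± 0.27, limma adjusted p = 0.00502), Gm32369 (-1.26 ± 0.19, 0.000841) and Gm36827 (-1.25 ± 0.28, 0.00907). The calls of Chaer1 (-0.77 ± 0.23, 0.0338) and Gm24474 (-1.07 ± 0.34, 0.0421) were near the threshold, and each was lost in 13 of 24 alternatives, among them leaving out GSK replicate 5 (adjusted p = 0.0826 and 0.11).

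At the lower edge of the rule, the members just inside were Gm27202, Gm32688 and C230035I16Rik, with means of 1.51, 1.51 and 1.52 FPKM. The lincRNA genes just outside were AC105304.1 (directly below 1.5 FPKM), Gm31678 (1.49) and Gm46430 (1.48). AC105304.1 had means of 0.295 FPKM in Sham, 2.42 in MI and 1.78 in GSK, Gm31678 of 2.29, 0.609 and 1.58, and Gm46430 of 1.43, 1.36 and 1.64. AC105304.1 was highest in MI and Gm31678 lowest in MI.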

How the data were processed

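The authors deposited FPKM values for 54532 genes in 15 poly-A libraries. The submitters' processing notes name build mm10, the aligner HISAT2, DESeq2, R 3.5.1 and Subread with featureCounts, with no order of steps. FPKM times gene length gave whole fragments for 100% of values within 0.01. The scale of each library was not its total of fragments assigned to genes, and how the scale was set was not tested. Because the deposited unit is FPKM, the main test was limma 3.58.1 in R 4.3.3 on log2(FPKM + 1) (lmFit, contrasts.fit and eBayes with a trend) over all 15 libraries and every gene reaching 1 FPKM in 5 or more libraries, with Benjamini-Hochberg adjustment over all genes tested. The script was tested on simulated data. Near-identical copies were searched with blastn 2.17.0 among GENCODE vM21 transcripts. The p-values set each group difference against the spread between libraries within the 3 groups. Since Sham replicates 1 and 2 each mix 2 animals, the Sham spread is not that between single animals.

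The members and gene lists were chosen with earlier results of these data known. Named members were the 12 largest called changes in each direction for MI against Sham, the 4 lowest p values in each direction for GSK against MI, the 5 highest means, members of the lists, the 3 on each side of the threshold, and their neighbours or neighbours differing by more than 1 on the log2 scale. Alternatives were a pseudocount of 0.1, no filter, voom on the recovered fragments, the 2 groups alone, a block for the replicate number, other scalings and leaving libraries out.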

Additional observations from a re-analysis of the deposited data

Results flagged for a closer look

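Over the members named above, 126 groups of 5 libraries were examined for a single library that stood far from the others, and 9 had one. Chance gives about 1 in 20. Gm10076 was at 112 FPKM in MI replicate 4, where the next value was 54.5, and Gm39469 in the same library was at 13.7, where the next was 7.40. Gm39469 was also low in Sham replicate 3, at 3.56 FPKM against 4.79 for the next. In MI replicate 1, Gm30735 was at 29.7 FPKM, with 16 as the next value. AI839979 was at 4.55 FPKM in MI replicate 3, with 2.83 next. Chaer1 was at 0.968 FPKM in GSK replicate 5, below 2.63 in the next library. Gm44386 was at 69.2 FPKM in GSK replicate 2, above 47.8. E130102H24Rik was at 1.84 FPKM in Sham replicate 3, below 3.24, and C030037D09Rik was at 0.825 FPKM in MI replicate 2, below 1.52.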

How the results depend on the processing

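With voom on the recovered fragments, 53 members were lower and 10 higher after infarction, beside 22.2% and 21.7% of all genes. The counts of members lower (46 to 57) and higher (8 to 13) in MI than in Sham stayed within 1.5 times of 55 and 11 under all 24 alternatives, and leaving out single libraries gave 51 to 57 and 8 to 11. Over all genes tested, the share lower ran from 8.82 to 23.7% and the share higher from 9.56 to 26.4%. For GSK against MI, leaving out single libraries gave 0 to 9 members higher and 0 to 2 lower (8 and 2 without MI replicate 1, 9 and 2 without GSK replicate 5), and all other alternatives gave 0. Members higher in GSK than in Sham numbered 4, and 1 with no filter, 7 with the 2 groups alone, 8 without mitochondrially encoded genes, 8 without MI replicate 4 and GSK replicates 3 and 4, the 3 libraries whose mitochondrial share was high for their group (all Sham libraries, at 41.2% or more, were kept and exceed the 40.6% of MI replicate 4), and 1 to 6 without single libraries (1 without Sham replicate 5, 2 without GSK replicate 5), and the cause was not tested. Over all genes, the share higher in GSK than in Sham was 10.8%, and it moved the same way in the settings named. It was 3.23% with no filter, 14.6% with the 2 groups alone and 15.6% without mitochondrially encoded genes. It was 12.97% without those 3 libraries, 7.22% without Sham replicate 5 and 6.14% without GSK replicate 5. Members lower in GSK than in Sham numbered 15 to 27, while the share lower over all genes ran from 1.87 to 12.98%. Of the neighbours, 11 to 20 were higher and 11 to 19 lower in MI, and 0 to 1 were higher in GSK than in MI without single libraries (1 without MI replicate 1, MI replicate 4 or GSK replicate 5).

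Gm10076 reversed to 0.052 in MI against Sham without mitochondrially encoded genes and ranged from -0.49 to 0.33 without single libraries. Snhg20 reversed to 0.059 without mitochondrially encoded genes, 0.061 without the mixed Sham libraries and 0.12 without those 3 libraries, and ranged from -0.074 to 0.12 without single libraries. The call of Gm30735 was lost in 15 of 24 alternatives, that of Gm16907 in 14 and that of Gm12295 in 8. For Gm12295 the libraries were Sham replicates 3, 4 and 5 and MI replicates 2 and 4, for Gm30735 any of these or MI replicates 1 and 3 or GSK replicates 3, 4 and 5, and for Gm16907 Sham replicates 2, 4 and 5, MI replicates 1, 2, 4 and 5 and GSK replicates 1, 3 and 4.

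Replicate numbers were not shown to pair the libraries. Same-numbered libraries had correlations of their deviations from -0.41 to 0.49. With the replicate number as a block, the MI and Sham comparison gave 9 members higher and 55 lower, beside 20.3% and 19.6% of all genes. In GSK against Sham, 3 members were higher and 18 lower, beside 7.34% and 4.25% of all genes. Low counts limit the smallest genes, with a median of 103 fragments per gene and library.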
